A study of Mus musculus with 9 samples.

Results

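Receptors for hematopoietic cytokines were followed in MEPs of mouse bone marrow, the shared progenitors of the megakaryocyte and erythroid lineages, after sorting by binding of HS3A8, a single-chain antibody fragment (scFv) against heparan sulfate. The 9 genes were chosen by name and found by their symbols among the 35275 identifiers of the count file: Epor, Csf2ra, Csf2rb, Csf2rb2, Il3ra, Flt3, Il6st, Il6ra and Ifngr1. HS3A8-high MEPs were the upper and HS3A8-low MEPs the lower part of the binding distribution, while MEPs mock-sorted with the scFv MPB49, which has no known epitope, served as control. All groups came from the same gate of lineage-negative, c-kit-positive, CD34-negative cells with low Fcγ receptor II/III, and nothing else was done to them in the sources used here. Each group had 3 libraries of bulk RNA-seq, with 25000 sorted cells as input for each library. The labels give no strain, age or treatment for single libraries. The libraries came from individual mice, but the sources do not say whether both fractions of a number came from the same animal, so the p-values measure the spread between these samples.

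Cytokine receptors of this kind have no enzyme activity of their own, apart from the receptor tyrosine kinase Flt3, and signal through JAK kinases and STAT factors bound to their intracellular parts. Erythropoietin acts through homodimers of its receptor on committed erythroid progenitors, where it sustains survival and proliferation. The receptors for IL-3 and GM-CSF each pair a ligand-specific alpha chain with a shared beta chain, and the IL-6 receptor pairs with gp130 in the same way. Flt3 is known as a receptor of multipotent and lymphoid-primed progenitors, and the GM-CSF receptor as one of the myeloid lineages.

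A pair of the genes are near-identical copies that lie side by side on chromosome 15 of GRCm38, and their sequences are shown because reads from them could be divided between them. Csf2rb, the beta chain shared by the receptors for IL-3, GM-CSF and IL-5, lies at chr15:78325752-78353847 on the plus strand, and Csf2rb2, the beta chain that mice use for IL-3 only, at chr15:78282507-78305721 on the minus strand. Their coding sequences have 2688 and 2634 bases, and of 2628 aligned bases 2503 were the same (95.2%). The first 120 coding bases, read from the GENCODE transcripts with the bases that differ in capitals, differ at 4 positions:
Csf2rb: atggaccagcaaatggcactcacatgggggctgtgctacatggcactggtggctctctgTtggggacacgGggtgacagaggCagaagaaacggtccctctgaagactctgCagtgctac
Csf2rb2: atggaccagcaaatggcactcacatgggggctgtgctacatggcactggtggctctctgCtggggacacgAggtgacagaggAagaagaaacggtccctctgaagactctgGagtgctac
Of all stretches of 100 bases in each transcript, 6.96% of those in Csf2rb and 7.20% of those in Csf2rb2 were present without a mismatch in the other. How reads from such stretches were counted is not given in the sources used here, and the counts of both genes are uncertain to that extent.

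The sequences before the transcription start are shown for 3 genes, Epor and Flt3 because these alone had HS3A8-high and HS3A8-low values that did not overlap, and Csf2ra because it passed a paired form of the test. They are the 250 bases before the RefSeq start of each gene on GRCm38.p6, in the direction of transcription, with capitals for the letters GATAA (read by GATA factors), GAGGAA (read by ETS factors of the PU.1 type) and CCACCC (the box read by KLF factors) on either strand. Epor lies at chr9:21963577-21963826 and Flt3 at chr5:147400490-147400739, both on the minus strand, and Csf2ra at chr19:61228419-61228668 on the minus strand:
Epor: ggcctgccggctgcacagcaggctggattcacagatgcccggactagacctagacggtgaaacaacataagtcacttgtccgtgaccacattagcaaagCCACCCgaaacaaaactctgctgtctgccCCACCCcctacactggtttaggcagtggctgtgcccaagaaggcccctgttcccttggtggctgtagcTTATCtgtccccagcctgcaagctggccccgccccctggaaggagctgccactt
Flt3: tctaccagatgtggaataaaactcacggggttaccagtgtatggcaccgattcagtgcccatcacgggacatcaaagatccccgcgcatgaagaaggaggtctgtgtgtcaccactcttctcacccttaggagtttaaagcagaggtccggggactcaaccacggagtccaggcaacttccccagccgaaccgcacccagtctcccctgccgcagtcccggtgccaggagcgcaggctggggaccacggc
Csf2ra: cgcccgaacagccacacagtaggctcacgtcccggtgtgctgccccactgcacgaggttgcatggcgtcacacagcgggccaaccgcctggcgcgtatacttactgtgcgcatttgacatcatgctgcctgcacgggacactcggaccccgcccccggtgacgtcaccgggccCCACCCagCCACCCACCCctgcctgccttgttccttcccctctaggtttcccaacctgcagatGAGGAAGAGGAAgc
The Epor window held GATAA on the opposite strand 54 bases before the start and CCACCC at 151 and 122 bases before it. The Flt3 window held none of the letters searched. The Csf2ra window held GAGGAA at 14 and 8 bases before the start. It held CCACCC at 77, 69 and 65 bases before the start, the last pair of CCACCC sharing letters. The RefSeq starts differ from the GENCODE gene ends used below. The GENCODE Csf2ra gene reaches to 61228429, inside this window, so GAGGAA at 8 bases lies within that gene and GAGGAA at 14 bases partly so. The GENCODE Epor gene ends at 21963506, short of the Epor window. Of 32841 promoter windows of this length, 22.6% held GATAA, 23.3% GAGGAA and 28.1% CCACCC, and 8 of the 9 receptor genes had an entry, all but Csf2rb.

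Library totals ran from 11781637 to 15850037 counts with 13936 to 15659 genes detected, and values below are CPM (counts per 10 to the power of 6 counted reads) after TMM scaling over all 9 libraries, given for replicates 1, 2 and 3 in that order. A count of 0 allows up to 3 counts, or 0.176 to 0.282 CPM, which covers counting error only. The label MEP was checked against its markers. Kit, the gate's positive marker, ran from 383 to 797 CPM, and the summed CPM of 10 erythroid markers from 11798 to 16015. Cd34 transcript was not absent, at 28.1, 61.6 and 73.8 CPM in HS3A8-low MEPs against 3.27, 0.828 and 11.0 CPM in HS3A8-high MEPs, although the gate selects against the protein. Replicate 3 of both fractions stood apart: the summed CPM of 12 granulocyte-monocyte markers was 29.8, 14.0 and 1995 in HS3A8-high MEPs, 182, 319 and 5149.6 in HS3A8-low MEPs, and 125, 226 and 178 in the control. Each of the 12 markers, Mpo and Elane among them, was highest in HS3A8-low replicate 3 and next highest in HS3A8-high replicate 3. Control replicate 1 correlated least with the other libraries (mean Pearson's r = 0.920, against 0.933 to 0.964 for the other 8, on log2 CPM across genes), and the control comparisons are given with and without it.

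Ifngr1 and Epor carried most of the receptor transcript in every group, and the other 7 genes were far lower. Per kilobase of exon, the control level was 169 ± 15.1 CPM per kb for Ifngr1, 136 ± 10.004 for Epor, 9.11 ± 4.497 for Csf2ra, 3.82 ± 0.982 for Flt3 and 1.09 ± 0.285 for Il3ra (mean ± SD, n = 3). No neighbors among these 5 overlapped in the control. Csf2rb followed at 0.337 ± 0.102, Il6st at 0.286 ± 0.110, Il6ra at 0.0948 ± 0.0723 and Csf2rb2 at 0.0530 ± 0.0917 CPM per kb, and each of these 4 overlapped its neighbor. In HS3A8-high MEPs the order began in the same way with Ifngr1 (162 ± 12.7), Epor (141 ± 9.40), Csf2ra (7.25 ± 4.05) and Flt3 (0.922 ± 0.644 CPM per kb). There Ifngr1 and Epor overlapped, and so did every neighbor from Flt3 downward. In HS3A8-low MEPs Ifngr1 was at 162 ± 13.7, Epor at 113 ± 9.85, Csf2ra at 15.1 ± 9.64 and Flt3 at 4.77 ± 1.61 CPM per kb, and the neighbors from Flt3 downward overlapped.

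**Figure D1:**
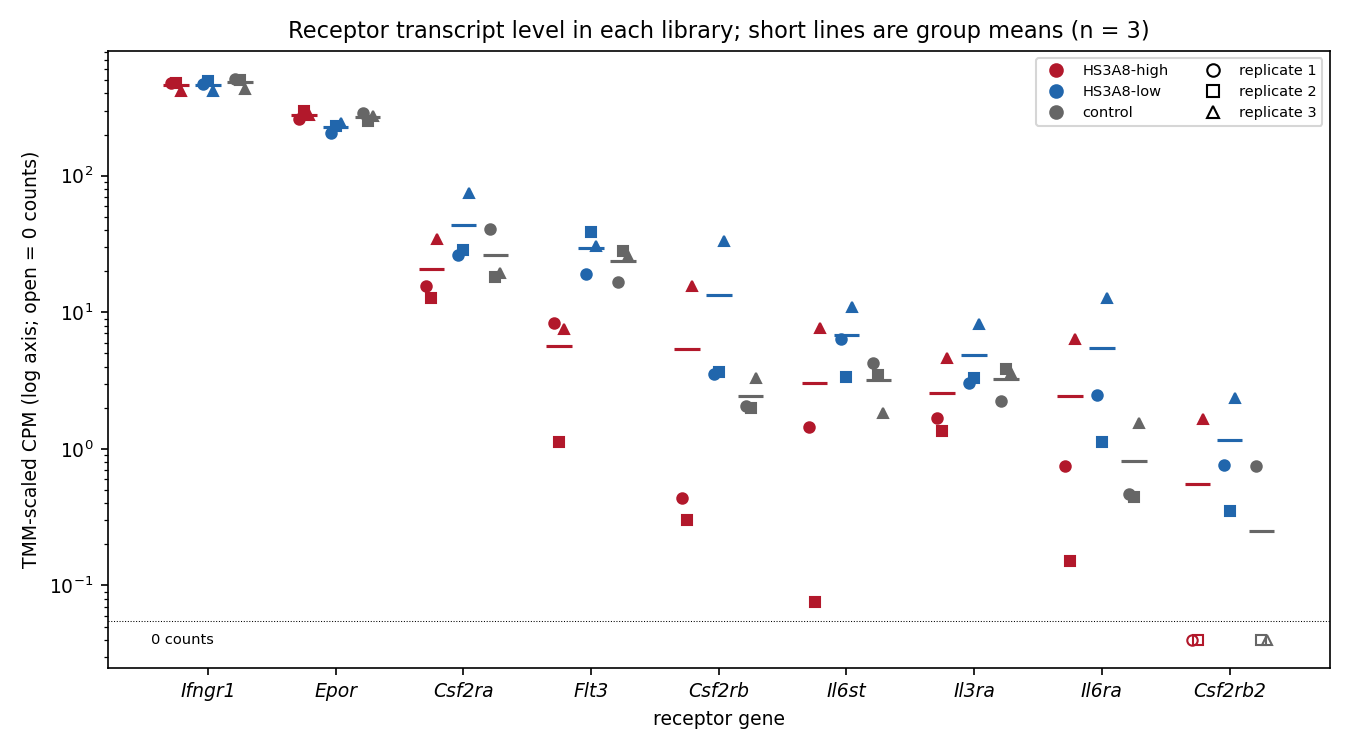
Level of each receptor gene in every library, as TMM-scaled CPM on a log axis, with color for the group, shape for the replicate number and a short line for the group mean (n = 3). Ifngr1 and Epor sit above 200 CPM in all libraries, and replicate 3 of both fractions (triangles) lies above replicates 1 and 2 of its fraction for Csf2rb, Csf2rb2, Il3ra, Il6st, Il6ra and Csf2ra.

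HS3A8-high was first compared with HS3A8-low MEPs, the contrast between strongly and weakly binding cells. Without a replicate block, none of the 9 receptor genes passed the edgeR quasi-likelihood test at an adjusted p under 0.05. Of the 11791 genes tested, 3.82% passed it. At an unadjusted p under 0.05 there were 2 receptor genes, Epor and Flt3, against 19.8% of all genes, and DESeq2 called 1, Flt3. All 9 passed the count filter. The log2 fold change (HS3A8-high over HS3A8-low) was negative for 8 of them and positive for Epor, with a median of -1.08 over the 9 genes and -0.03 over all genes tested. Of all genes, 0.611% passed with more transcript in HS3A8-high and 3.21% with more in HS3A8-low MEPs. In bulk samples, fewer cells of a type and less RNA per cell cannot be told apart. With the replicate number as a block, 2 of the 9 genes passed, Csf2ra and Csf2rb, where 11.6% of all genes did, 3.32% higher in HS3A8-high and 8.27% higher in HS3A8-low MEPs.

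Epor, the erythropoietin receptor (chr9:21958897-21963506, minus strand, ENSMUSG00000006235), was higher in HS3A8-high than in HS3A8-low MEPs of each replicate number. Its level was 261, 299 and 279 CPM in HS3A8-high MEPs and 205, 229 and 243 CPM in HS3A8-low MEPs, with 289, 249.8 and 275 CPM in the control. The lowest HS3A8-high library lay above the highest HS3A8-low library, which was so for 12.1% of all genes tested in this direction. The log2 fold change was 0.28 (SE 0.09, 95% interval 0.06 to 0.50) and did not pass the edgeR test (adjusted p = 0.150, and 0.0525 with the replicate block), also not without replicate 3 of both fractions (0.36, adjusted p = 0.159). Within replicate numbers the log2 differences were 0.35, 0.38 and 0.20. The genes with the most similar pattern over the 9 libraries were Lap3 (Pearson's r = 0.992), Nxpe2 (0.983) and Cyc1 (0.979), among 9350 genes compared that averaged at least 5 CPM. As for every receptor gene here, this likeness is a description over 9 libraries that share the same 3 groups. The summed CPM of the erythroid markers ran the same way, with 15318 to 16015 in HS3A8-high MEPs against 11798 to 13039 in HS3A8-low MEPs. Its part in the Epor difference was not tested.

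Ifngr1, the ligand-binding chain of the interferon-γ receptor (chr10:19591949-19610229, plus strand, ENSMUSG00000020009), was level across the groups. HS3A8-high MEPs had 481, 481 and 418 CPM, HS3A8-low MEPs 467, 495 and 418 CPM, and the control 512, 500.4 and 433 CPM. Replicate 3 was the lowest of each group, and the groups overlapped. The log2 fold change between the fractions was -0.03 (SE 0.10, adjusted p = 0.917 by the edgeR test), with a 95% interval from -0.26 to 0.21. Within replicate numbers the fractions differed by 0.04, -0.04 and 0.00 on the log2 scale. The most similar genes were Vps33b (r = 0.940), Zfp446 (0.925) and Dcun1d4 (0.923).

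Flt3, the receptor tyrosine kinase for FLT3 ligand (chr5:147330741-147400489, minus strand, ENSMUSG00000042817), was lower in HS3A8-high MEPs than in either other group. Its level was 8.41, 1.13 and 7.55 CPM in HS3A8-high MEPs, from 134, 15 and 114 counts. In HS3A8-low MEPs it was 19.1, 38.9 and 30.5 CPM, and in the control 16.8, 28.3 and 25.8 CPM. All HS3A8-high libraries lay below all others, and replicate 3, which stood apart in granulocyte-monocyte markers, lay within its fraction. The groups did not overlap, which was so for 15.7% of all genes tested in this direction. Its log2 fold change was -2.39 (SE 0.66, 95% interval -3.95 to -0.82) and did not pass the edgeR test (adjusted p = 0.105, and 0.0638 with the replicate block), nor without replicate 3 of both fractions (-2.58, adjusted p = 0.128). DESeq2, an alternative, called Flt3 with a log2 fold change of -2.38 (adjusted p = 0.000837) as the only receptor gene, among 8.87% of all genes. Within replicate numbers the differences were -1.18, -5.06 and -2.01.

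The genes most like Flt3 were Adgrl4 (r = 0.978), Cd34 (0.955) and Zfp773 (0.955). The summed CPM of 8 stem and multipotent progenitor markers, which include Cd34, was 33.7, 28.3 and 31.3 in HS3A8-high MEPs, 205, 191 and 162 in HS3A8-low MEPs and 87.6, 141 and 118 in the control. Of the 7 markers tested, all were lower in HS3A8-high MEPs, as were 6292 of all 11791 genes tested. Of these markers, 3 passed the edgeR test, against 3.21% of all genes in that direction. They were the transcription factors Meis1 (log2 fold change -3.33, SE 0.37, adjusted p = 0.0128) and Hlf (-2.87, SE 0.46, adjusted p = 0.0283) and the Tie2 ligand Angpt1 (-2.42, SE 0.37, adjusted p = 0.0257). Ly6a had at most 5 counts per HS3A8-high library and could reach the count filter only through the other fraction. That fixed its direction before the test, so the tally of directions is a description only. The part of these markers in the Flt3 difference was not tested.

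Csf2ra, the alpha chain that binds GM-CSF (chr19:61223957-61228429, minus strand, ENSMUSG00000059326), was lower in HS3A8-high than in HS3A8-low MEPs of each replicate number. Its level was 15.6, 12.7 and 34.2 CPM in HS3A8-high MEPs, 26.1, 28.4 and 75.2 CPM in HS3A8-low MEPs, and 41.0, 18.0 and 19.5 CPM in the control. HS3A8-high replicate 3 exceeded HS3A8-low replicates 1 and 2, so the fractions overlapped. Without the block the log2 fold change was -1.08 (SE 0.52, adjusted p = 0.321 by the edgeR test). With it the fold change was -1.04 (SE 0.13, adjusted p = 0.0112), and without replicate 3 of both fractions -0.95 (adjusted p = 0.0483), where 6.29% of all genes passed. Leaving out HS3A8-high replicate 3 alone gave -1.62 and HS3A8-low replicate 3 alone -0.41. The within-number differences were -0.74, -1.16 and -1.14, close to each other although the level in replicate 3 was 2.41 times the mean of replicates 1 and 2 for HS3A8-high MEPs and 2.76 times for HS3A8-low MEPs. The most similar genes were Naaa (r = 0.975), Nfkbid (0.968) and Ms4a6c (0.960).

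Il3ra, the alpha chain that binds IL-3 (chr14:14346275-14356011, plus strand, ENSMUSG00000068758), was also lower in HS3A8-high than in HS3A8-low MEPs of each replicate number, but did not pass the test in the fits run. It had 1.70, 1.35 and 4.63 CPM in HS3A8-high MEPs, 3.04, 3.31 and 8.16 CPM in HS3A8-low MEPs, and 2.26, 3.83 and 3.60 CPM in the control. HS3A8-high replicate 3 again lay above HS3A8-low replicates 1 and 2. Between the fractions the log2 fold change was -0.93 (SE 0.61, 95% interval -2.38 to 0.51, adjusted p = 0.455 by the edgeR test, and 0.101 with the block), and without replicate 3 of both fractions it was -1.06 (adjusted p = 0.236). Leaving out HS3A8-high replicate 3 alone gave -1.66 and HS3A8-low replicate 3 alone -0.33. The within-number differences were -0.83, -1.26 and -0.81. The most similar genes were the granule enzyme gene Mpo (r = 0.979), Ms4a3 (0.971) and Mpnd (0.969). An antisense gene, Gm48860, overlapped 1.55% of the Il3ra exons, and whether the counting used the strand is not given in the sources used here.

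Csf2rb, the shared beta chain (ENSMUSG00000071713), was far higher in replicate 3 than in replicates 1 and 2 of both fractions. Its level was 0.440, 0.301 and 15.5 CPM in HS3A8-high MEPs, 3.51, 3.66 and 33.2 CPM in HS3A8-low MEPs, and 2.07, 1.98 and 3.30 CPM in the control. Replicate 3 was 41.8 times the mean of replicates 1 and 2 for HS3A8-high MEPs and 9.25 times for HS3A8-low MEPs, against 1.63 times in the control. Without the block the log2 fold change was -1.33 (SE 1.51, adjusted p = 0.685 by the edgeR test) and turned to 0.56 (adjusted p = 0.893) without HS3A8-low replicate 3 and to -5.14 (adjusted p = 0.111) without HS3A8-high replicate 3. With the replicate block it was -2.11 (SE 0.48, adjusted p = 0.0441), and without replicate 3 of both fractions -3.24 (adjusted p = 0.0211). Within replicate numbers HS3A8-high MEPs were lower by 2.91, 3.45 and 1.10 on the log2 scale. The HS3A8-high values of replicates 1 and 2 rest on 7 and 4 counts. The genes most like Csf2rb were Slpi (r = 0.989), Adam15 (0.981) and Anxa3 (0.979).

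Csf2rb2, the IL-3-specific beta chain (ENSMUSG00000071714), was at the limit of detection. It had 0, 0 and 25 counts in HS3A8-high MEPs, 13, 5 and 28 counts in HS3A8-low MEPs, and 8, 0 and 0 counts in the control. In CPM this was 0, 0 and 1.65 in HS3A8-high MEPs and 0.761, 0.352 and 2.36 in HS3A8-low MEPs. Replicate 3 held the highest value of each fraction. Its log2 fold change was -1.05 (SE 1.46, adjusted p = 0.745 by the edgeR test, and 0.264 with the block). It moved to -0.05 without HS3A8-low replicate 3, and without HS3A8-high replicate 3 all remaining HS3A8-high libraries were at 0, where the fitted value of -7.06 is no bound on the change. The genes most like it were Ralb (r = 0.956), Sema4a (0.946) and Ctss (0.942).

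Il6ra and Il6st, the ligand-binding and signaling chains of the IL-6 receptor, were low in all groups. Il6ra (chr3:89864059-89913196, minus strand, ENSMUSG00000027947) had 0.754, 0.151 and 6.35 CPM in HS3A8-high MEPs, 2.46, 1.13 and 12.8 CPM in HS3A8-low MEPs, and 0.471, 0.447 and 1.54 CPM in the control. Replicate 3 was highest in each group. The log2 fold change between the fractions was -1.19 (SE 1.30, adjusted p = 0.674 by the edgeR test, and 0.0654 with the block), and it turned to 0.40 (adjusted p = 0.916) without HS3A8-low replicate 3 and to -3.53 (adjusted p = 0.211) without HS3A8-high replicate 3. Without replicate 3 of both fractions it was -1.95 (adjusted p = 0.256). Within replicate numbers the differences were -1.66, -2.63 and -1.01. An antisense gene, Gm42809, overlapped 2.80% of the Il6ra exons. The most similar genes were Vsir (r = 0.960), F13a1 (0.949) and Tmem50b (0.945).

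Il6st, which encodes gp130, the chain shared by the receptors of the IL-6 family (chr13:112464070-112510086, plus strand, ENSMUSG00000021756), had 1.44, 0.0753 and 7.61 CPM in HS3A8-high MEPs. HS3A8-low MEPs had 6.32, 3.38 and 10.9 CPM and the control 4.24, 3.45 and 1.84 CPM. HS3A8-high replicate 2 held a single count, and HS3A8-high replicate 3 exceeded HS3A8-low replicates 1 and 2. Between the fractions the log2 fold change was -1.19 (SE 1.12, 95% interval -3.84 to 1.46, adjusted p = 0.619 by the edgeR test, and 0.127 with the block). Without replicate 3 of both fractions it was -2.63 (adjusted p = 0.178), and with 1 library left out it ran from -3.13 (HS3A8-high replicate 3) to -0.62 (HS3A8-high replicate 2). The within-number differences were -2.11, -4.92 and -0.51. The most similar genes were Sorl1 (r = 0.981), Ighm (0.966) and Themis2 (0.957).

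**Figure D2:**
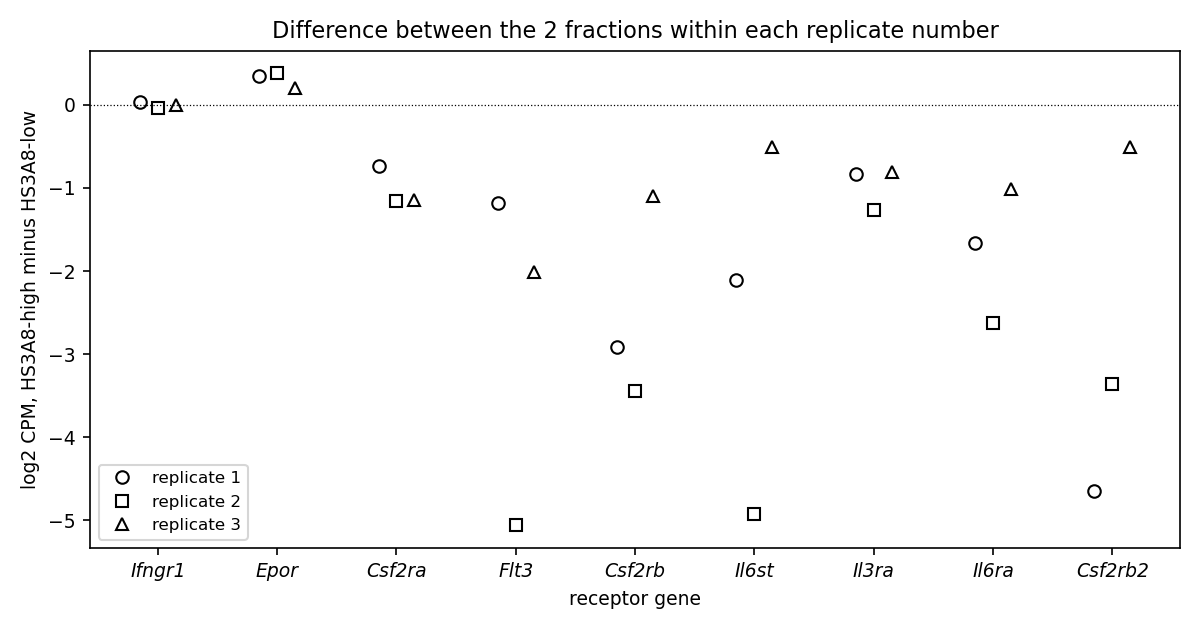
Difference in log2 CPM (prior count 0.5) between HS3A8-high and HS3A8-low MEPs for each receptor gene, with a shape for each replicate number. The 3 points lie below 0 for Csf2ra, Flt3, Csf2rb, Il6st, Il3ra, Il6ra and Csf2rb2, above 0 for Epor (0.20 to 0.38) and around 0 for Ifngr1.

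HS3A8-low replicate 3 was the highest of the 9 libraries for 6 of the 9 receptor genes, and for 5 of these HS3A8-high replicate 3 came second. The sum of the basophil and mast cell markers ran with them, with a summed CPM of 1.63, 2.48 and 80.7 for HS3A8-high, of 20.9, 27.2 and 166 for HS3A8-low and of 23.2, 11.2 and 10.1 for control MEPs. Not every marker of this list did so. Ms4a2 was lowest of its fraction in HS3A8-high replicate 3 (0.662 CPM). Cpa3 was nearly level in HS3A8-low MEPs (17.6, 20.6 and 23.1 CPM), and Tpsb2 had 0 counts. The remaining markers of the list were highest in replicate 3 of both fractions. Of 11 granulocyte-monocyte markers tested, all were lower in HS3A8-high than in HS3A8-low MEPs, 0 passed the edgeR test, 0 had an unadjusted p under 0.05, DESeq2 called 0 and 7 passed with the replicate block. The median log2 fold change of the 11 markers was -1.50 in the main fit. Without replicate 3 of both fractions, 6 of these markers passed the edgeR test, where 6.29% of all genes did. The receptor Fcgr3, which the gate keeps low, had 17.8 CPM in HS3A8-high replicate 3 and 43.9 CPM in HS3A8-low replicate 3, against 0.147 to 2.25 CPM in the other 7 libraries. Their part in the receptor differences was not tested.

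**Figure D3:**
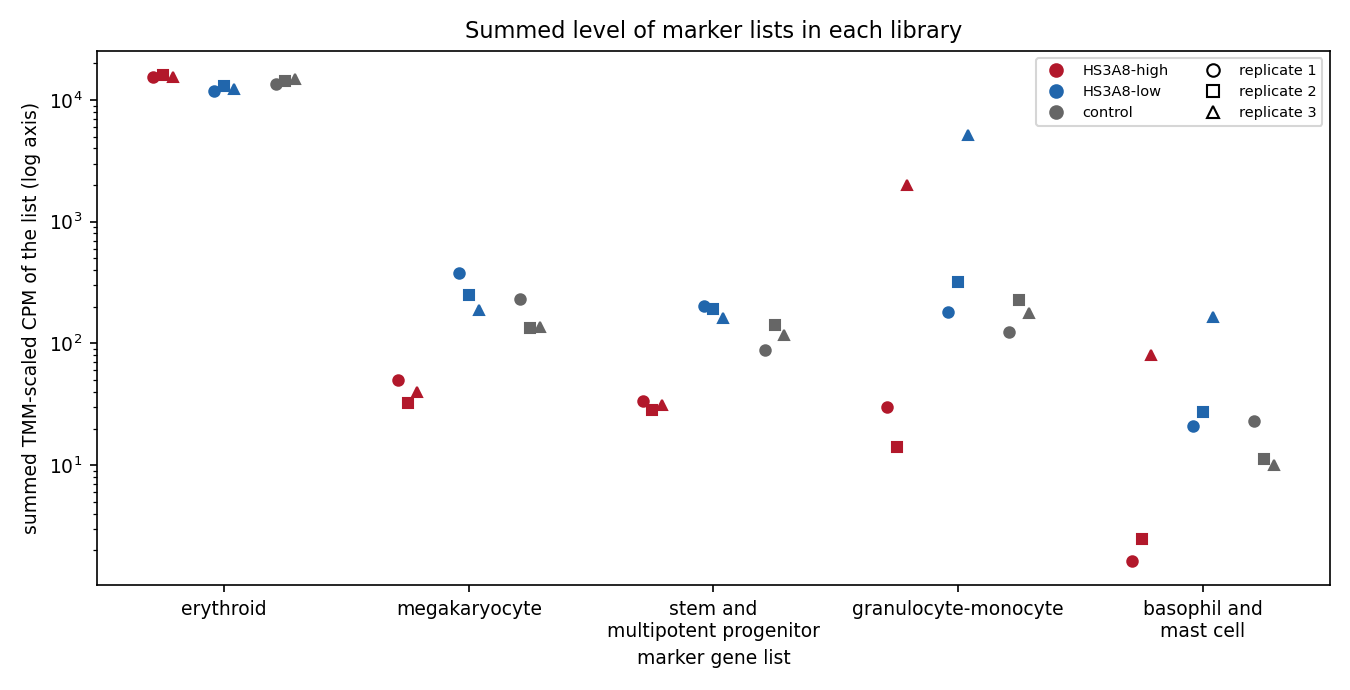
Summed TMM-scaled CPM of 5 marker lists in each library on a log axis, with color for the group and shape for the replicate number. Replicate 3 of both fractions stands above the others in the granulocyte-monocyte (1995 and 5149.6) and the basophil and mast cell lists, and the 3 HS3A8-high libraries lie below all others in the megakaryocyte and stem lists.

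Each fraction was then compared with the MPB49 control, which both comparisons share. Of 11486 genes tested between HS3A8-high MEPs and the control, 2 passed the edgeR test (0.0174%), with 562 at an unadjusted p under 0.05 (4.89%) and 143 called by DESeq2 (1.06% of the genes it tested). None of the 8 receptor genes that passed the edgeR count filter was called by edgeR, and 1 of them (Flt3) had an unadjusted p under 0.05. DESeq2, which also tested Csf2rb2, called 0 of the receptor genes and gave no adjusted p for Csf2rb. Flt3 had a log2 fold change of -2.04 (SE 0.64, adjusted p = 0.733), and its groups did not overlap, as for 7.19% of all genes in this direction and 6.77% in the other. The other log2 fold changes were 0.06 for Epor, -0.05 for Ifngr1, -0.30 for Csf2ra, -0.32 for Il3ra, -0.03 for Il6st, 1.16 for Csf2rb and 1.56 for Il6ra, with SE from 0.13 to 1.33. The last pair turned to -2.68 and -0.82 without HS3A8-high replicate 3. Without control replicate 1, which stood apart, Csf2ra turned to 0.16 and Il6st to 0.21, and the others were at -2.23 for Flt3, 0.10 for Epor, -0.01 for Ifngr1, -0.53 for Il3ra, 1.04 for Csf2rb and 1.29 for Il6ra. With that library left out, 5 genes passed and no receptor gene did.

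Between HS3A8-low MEPs and the control, 0 of 11878 genes passed the edgeR test (0%), with 673 at an unadjusted p under 0.05 (5.67%) and 93 called by DESeq2 (0.672% of the genes it tested). None of the 8 receptor genes tested by edgeR was called by it or by DESeq2, and 2 of them, Csf2rb and Il6ra, had an unadjusted p under 0.05. The log2 fold change (HS3A8-low over control) was -0.26 for Epor (SE 0.15, adjusted p = 0.840) and -0.07 for Ifngr1 (SE 0.15), with 95% intervals of -0.62 to 0.09 and -0.43 to 0.29. It was 0.32 for Flt3, 0.73 for Csf2ra, 0.57 for Il3ra, 1.11 for Il6st, 2.44 for Csf2rb (SE 0.93, adjusted p = 0.805) and 2.71 for Il6ra (SE 1.01, adjusted p = 0.805). Epor lay below the control in all 3 libraries, as did 4.92% of all genes, and Csf2rb above it, as did 7.91%. Without HS3A8-low replicate 3, Csf2rb stood at 0.56, Il6ra at 1.13, Il6st at 0.63, Csf2ra at 0.08, Il3ra at -0.02 and Ifngr1 at 0.01. Without replicate 3 of both groups, Csf2ra stood at -0.14. Without control replicate 1, 0 genes passed, and the fold changes were -0.22 for Epor, -0.02 for Ifngr1, 0.12 for Flt3, 1.20 for Csf2ra, 0.37 for Il3ra, 1.36 for Il6st, 2.34 for Csf2rb and 2.45 for Il6ra.

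**Figure D4:**
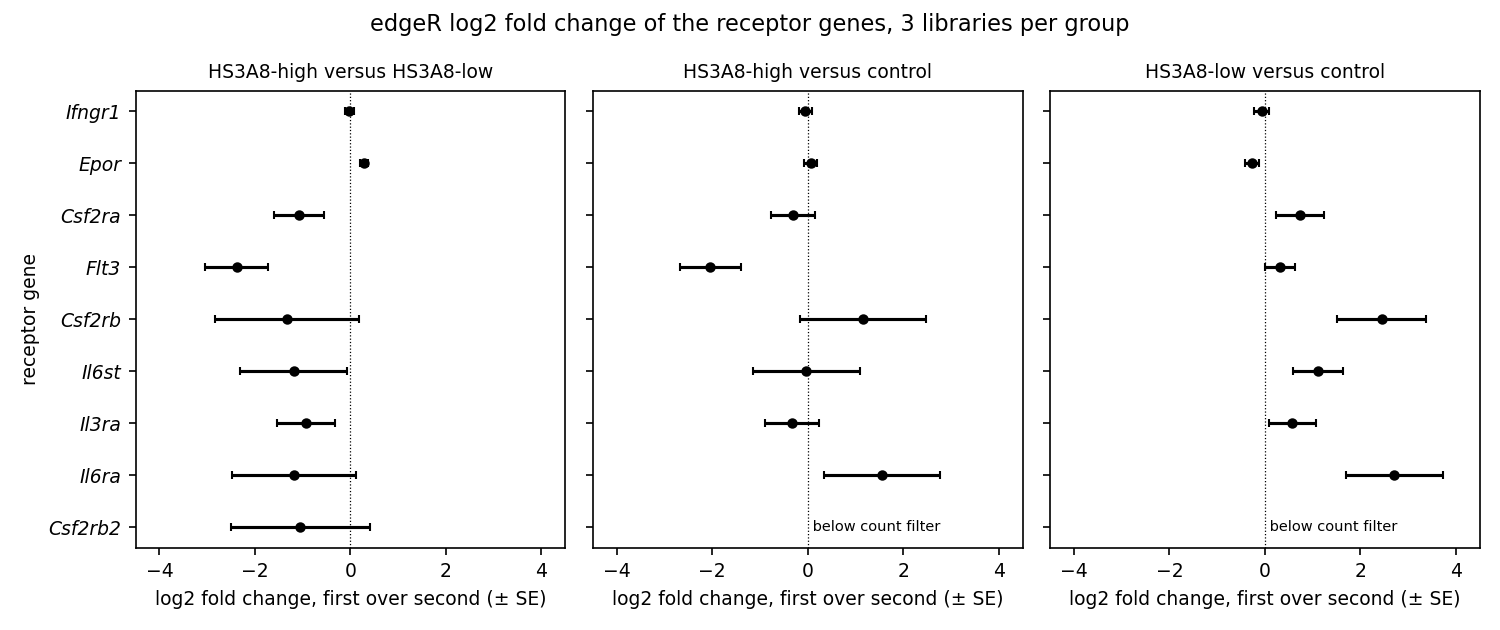
Log2 fold change of each receptor gene (first group over second) with its SE from edgeR in the 3 comparisons, 3 libraries per group. Flt3 lies at -2.39 and -2.04 in the comparisons of HS3A8-high MEPs, Epor and Ifngr1 lie near 0 with narrow bars, and Csf2rb2 was below the count filter in the control comparisons.

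Other parts of the cytokine pathway were described from lists of named genes between HS3A8-high and HS3A8-low MEPs. Of 29 further cytokine receptors, 22 were tested and 20 were lower in HS3A8-high MEPs, with a median log2 fold change of -1.18 against -0.03 over all genes. Of these, 3 passed the edgeR test and 10 passed with the replicate block, all of them lower in HS3A8-high MEPs, against 3.21% and 8.27% of all genes in that direction. Some of the 22 receptors reached the count filter through HS3A8-low MEPs alone, so the tally of directions is a description only. The common γ chain Il2rg had 10.9, 12.2 and 11.98 CPM in HS3A8-high and 18.2, 23.2 and 22.3 CPM in HS3A8-low MEPs (log2 fold change -0.89, SE 0.17, adjusted p = 0.0417). The IL-11 receptor Il11ra1 had 11.3, 12.04 and 13.5 against 21.4, 25.5 and 21.1 CPM (-0.91, SE 0.17, adjusted p = 0.0364), and the TSLP receptor Crlf2 had 6.03, 6.25 and 9.86 against 14.9, 18.6 and 19.9 CPM (-1.30, SE 0.26, adjusted p = 0.0451). The fractions did not overlap for any of these 3 genes, and without replicate 3 of both fractions Il2rg no longer passed (adjusted p = 0.0976).

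Signaling genes next to the receptors were level as a list. All 16 were tested, 8 lay on either side, and the median log2 fold change was 0.00. Of these, 2 passed the edgeR test and 3 with the block, against 3.82% and 11.6% of all genes. Jak3, the kinase bound by the common γ chain, had 27.4, 20.9 and 26.3 CPM in HS3A8-high and 45.9, 48.7 and 40.0 CPM in HS3A8-low MEPs (log2 fold change -0.88, SE 0.15, adjusted p = 0.0333). The Src-family kinase Lyn had 34.1, 34.9 and 39.7 against 56.9, 56.9 and 69.9 CPM (-0.78, SE 0.13, adjusted p = 0.0287). The fractions of Jak3 and Lyn did not overlap.

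Of 12 cytokine-induced target genes, all were tested and 11 were lower in HS3A8-high MEPs (median log2 fold change -1.37). The feedback inhibitor Socs1 had 0.251, 0.527 and 0.199 CPM in HS3A8-high and 2.63, 4.01 and 1.77 CPM in HS3A8-low MEPs (log2 fold change -3.12, SE 0.56, adjusted p = 0.0354). Its values rest on 4, 7 and 3 counts in HS3A8-high and 45, 57 and 21 counts in HS3A8-low MEPs. Socs1 thus reached the count filter through HS3A8-low MEPs alone, which fixed its direction before the test. The interferon-response factor Irf1 had 11.3, 5.64 and 8.87 against 32.2, 26.2 and 26.3 CPM (-1.74, SE 0.28, adjusted p = 0.0282). These 2 passed the edgeR test, and 3 did with the block, against 3.82% and 11.6% of all genes. Of 15 cytokine ligands in the file, 5 were tested and all 5 were lower in HS3A8-high MEPs. The CNTF-family cytokine Clcf1 passed the edgeR test (adjusted p = 0.0498), with 0 counts in each HS3A8-high library and 26, 55 and 10 counts in HS3A8-low MEPs. Clcf1 thus reached the count filter through HS3A8-low MEPs alone, which fixed its direction before the test. The tally of 5 ligands includes Clcf1 and is a description only. Epo, Il3, Il5 and Csf3, the ligands of several of these receptors, had 0 counts in all 9 libraries, as did the mast cell and B cell markers Tpsb2 and Pax5.

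**Figure D5:**
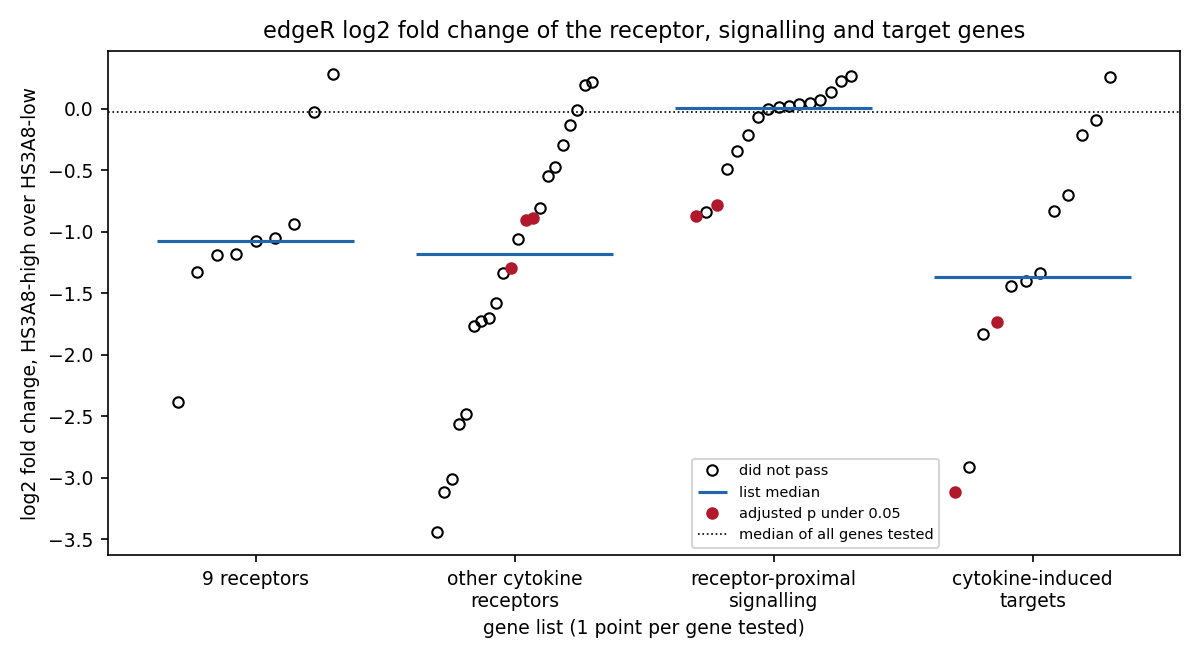
Log2 fold change of HS3A8-high over HS3A8-low MEPs from edgeR for the 9 receptor genes, further cytokine receptors, receptor-proximal signaling genes and cytokine-induced targets, 1 point per gene tested. Filled points passed the test, blue lines are list medians (-1.08, -1.18, 0.00 and -1.37) and the dotted line is the median of all genes (-0.03).

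The remaining marker lists gave the cell content beside which these receptors were measured. The 9 megakaryocyte markers tested were all lower in HS3A8-high MEPs, as were 6292 of all 11791 genes tested. Of these markers, 4 passed the edgeR test, against 3.21% of all genes in that direction. They were Itga2b (log2 fold change -4.01, adjusted p = 0.00712), Pf4 (-4.29, adjusted p = 0.00712), Fli1 (-2.19, adjusted p = 0.0363) and Treml1 (-2.97, adjusted p = 0.0196). Gp1bb had at most 11 counts and Selp at most 10 per HS3A8-high library. Both could reach the count filter only through the other fraction, which fixed their direction before the test. The tally of megakaryocyte directions is therefore a description only. Of the 10 erythroid markers, 7 were higher in HS3A8-high MEPs and Car1, a carbonic anhydrase of early erythroid cells, passed (0.36, SE 0.05, adjusted p = 0.0257, and 0.0899 without replicate 3 of both fractions). Nkg7, a cytotoxic granule gene, was the only marker of T and NK cells that passed in the main fit (-3.14, adjusted p = 0.0458), where 6 were tested. Of this list, 3 passed with the replicate block and DESeq2 called 2, against 11.6% and 8.87% of all genes. Without replicate 3 of both fractions, 5 passed, against 6.29% of all genes. In replicates 1 and 2 Cd3e, Cd3d and Cd3g had 0 counts in HS3A8-high MEPs, against 40, 27 and 44 counts in HS3A8-low MEPs. Such genes could reach the count filter there only through HS3A8-low MEPs, which fixes their direction before the test. This tally is therefore a description only. The 2 B cell, 3 basophil and mast cell and 2 dendritic cell markers tested gave 0 calls by edgeR, with 1, 2 and 2 at an unadjusted p under 0.05. DESeq2, which tested more genes, called 1, 1 and 3 of these lists.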

How the data were processed

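Bulk RNA-seq of 9 libraries of sorted mouse MEPs was used, in 3 groups of 3 taken from the sample labels. The authors mapped the reads to mm10 with STAR, and the submitters' processing notes name STAR 2.5 and HTSeq 0.6.1. The authors deposited raw read counts per gene, whole numbers without normalization, with 1 column per library and no pooling. The annotation release and the use of strand in counting are not given in the sources used here. Library totals were 11781637 to 15850037 counts, so a count of 0 allows 3 counts, or 0.176 to 0.282 TMM-scaled CPM.

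Of 35275 identifiers, 34490 matched GENCODE M21 (GRCm38, the assembly behind mm10), which gave symbols and coordinates, and 16617 had no count. Counts were tested in R 4.3.3 by the quasi-likelihood test of edgeR 4.0.16 (limma 3.58.1) with TMM, filterByExpr, Benjamini-Hochberg adjustment over all genes tested and a threshold of 0.05, each fit holding only the libraries of the groups compared. The 95% intervals are fold change and SE from that fit with its t quantiles. The SE was taken as the fold change divided by the square root of the F statistic. Genes near 0 in 1 group could reach the count filter through the other group alone, which fixes their direction before the test. The scripts were tested on simulated counts. Alternatives were DESeq2 1.42.0 (the study's tool), its size factors, the fit of every gene without a filter or only of genes averaging 10 counts or more, a joint fit of the 9 libraries, the replicate number as a block, and fits that left out each library or replicate 3 of both groups.

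The replicate numbers were checked for pairing. Deviations from the group mean over 12108 genes were correlated when an HS3A8-high library was set beside the HS3A8-low library with its own number (r = 0.493, 0.325 and 0.509). For different numbers the correlations lay between -0.469 and 0.123. Deviations within a group sum to 0, so positive values for the same number lower those for different numbers. These fractions were treated as paired only in the replicate block, an alternative. The main fits had no block, so their p-values ignore this correlation between libraries of the same number. The fractions and the control showed no such pairing (r = -0.345 to 0.0312 for the same number), although the block was also run there as an alternative.

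Every receptor gene is named. Of the other lists, genes that passed a test and genes with 0 counts in all libraries are named by rule, and for each receptor gene the 3 with the highest Pearson correlation of log2 CPM (prior count 2) among genes of at least 5 CPM. Kit, Cd34, Fcgr3, Mpo, Elane, Cpa3 and Ms4a2 are named outside this rule, as markers of the gate or of its contents. The genes and lists were chosen with earlier results of these data known. A further gene is not reported here.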

Additional observations from a re-analysis of the deposited data

How the results depend on the processing

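The 54 recomputed group levels of the receptor genes moved by less than the replicate SD with DESeq2 size factors or total-count scaling. Of 321 recomputed fold changes, 296 kept their direction and side of the threshold, 5 came to pass it and 20 changed sign. The cause was not tested.

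Between HS3A8-high and HS3A8-low MEPs, 451 genes and 0 receptor genes were called, against 1224 and 1 with the DESeq2 test and 1367 and 2 with the replicate block, which pairs libraries by number. The block changed no other call on a receptor gene. With libraries left out, 0 to 748 genes and 0 to 2 receptor genes were called, the fewest without HS3A8-low replicate 2 and the most without replicate 3 of both fractions. The log2 fold change then ranged from -7.06 to -0.05 for Csf2rb2 (the first with every HS3A8-high library at 0), from -5.14 to 0.56 for Csf2rb, from -3.53 to 0.40 for Il6ra, from -3.13 to -0.62 for Il6st, from -2.78 to -1.90 for Flt3, from -1.66 to -0.33 for Il3ra, from -1.62 to -0.41 for Csf2ra and from -0.088 to 0.053 for Ifngr1, and Ifngr1 stood at 0.0026 without the count filter.

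Between HS3A8-high MEPs and the control, 2 genes were called, against 143 with the DESeq2 test, 9 without the count filter, 32 with all 9 libraries in 1 fit, 0 with the replicate block and 0 to 5 with libraries left out. Left-out libraries moved Epor from -0.0074 to 0.12, Csf2ra from -1.02 to 0.16, Csf2rb from -2.68 to 1.70, Il6st from -2.27 to 0.51, Il6ra from -0.82 to 2.41 and Ifngr1 from -0.11 to 0.015, and Csf2rb stood at -0.79 with the block. Between HS3A8-low MEPs and the control, 0 genes were called, against 93 with the DESeq2 test. Left-out libraries moved Csf2rb from 0.56 to 2.90, Il6ra from 1.13 to 3.54, Csf2ra from -0.14 to 1.20, Il3ra from -0.018 to 0.82 and Ifngr1 from -0.14 to 0.011.

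The HS3A8-high values of Csf2rb, Csf2rb2, Il6st and Il6ra in replicates 1 and 2 rest on 0 to 23 counts, and replicate 3 of that fraction was 41.8 times their mean for Csf2rb and 14.1 times for Il6ra. Csf2rb had no adjusted p from DESeq2 in the comparisons of HS3A8-high MEPs. Csf2rb2 was below the count filter of the main edgeR fits against the control, so these recomputed fold changes leave it out there. DESeq2 tested it.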
